A study of Homo sapiens with 8 samples.

Results

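The cathepsins are the acid proteases of the lysosome. Their mRNAs were followed in HCT116, an established line from a human colorectal carcinoma, with the degradation tag dTAG on NUDT21. The 10 genes CTSA, CTSB, CTSC, CTSD, CTSF, CTSH, CTSK, CTSL, CTSS and CTSZ were taken by symbol from the 78932 genes in the count tables. All 10 had an entry there. Of the 8 libraries, 4 came from dTAG-NUDT21 cells given DMSO with JTE-607, and 4 from the same cells given dTAGV1 with JTE-607. NUDT21 encodes a subunit of cleavage factor Im, a complex that binds UGUA motifs upstream of poly(A) sites. dTAGV1 is a compound that sends dTAG-bearing proteins to the proteasome, DMSO is the solvent control, and JTE-607 inhibits CPSF73, the nuclease that cuts pre-mRNA at poly(A) sites. Every library, controls included, thus carried the NUDT21 tag and JTE-607. The doses, the times and whether the tagged line is a single clone are not given in the sources used here.

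Cathepsins are made as inactive precursors in the endoplasmic reticulum, tagged with mannose 6-phosphate in the Golgi and carried by receptors to the lysosome, where acid pH and proteolysis activate them. CTSA is a serine carboxypeptidase, CTSD is an aspartic protease, and the other members studied here are cysteine proteases of the papain family. In epithelial cells CTSB, CTSD and CTSL carry out bulk protein turnover, whereas CTSK is best known from bone-resorbing osteoclasts and CTSS from antigen-presenting cells. Cystatins inhibit the cysteine members. The transcription factors TFEB, TFE3 and MITF induce many lysosomal genes by binding an E-box with the core CACGTG.

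Libraries held 8649238 to 9977205 reads, of which 3447842 to 4291256 were counted to genes on their own strand. NUDT21 mRNA had 104 to 139 counts in the DMSO libraries and 15 to 43 in the dTAGV1 libraries. Degradation through the tag is a matter of protein, and no protein was measured here. Of 8 colon epithelial markers 7 passed the filter on low counts, and 2 of these rose and 3 fell with dTAGV1. Over all tested genes, 29.4% rose and 28.5% fell. The markers summed to 1723 to 2015 CPM (counts per 1000000 after scaling) with DMSO and 1532 to 1648 CPM with dTAGV1. EPCAM and ELF3 rose, at log2 fold changes of 0.28 and 1.96, KRT18 and KRT19 fell, at -0.60 and -0.65, and VIL1 was near 0. None of 9 macrophage and leukocyte markers passed the filter, and their sum ran from 2.13 to 4.65 CPM with DMSO and 1.21 to 4.25 CPM with dTAGV1, with CD163 and AIF1 at 0. None of 4 osteoclast markers passed the filter, and they summed to 0 to 1.33 CPM with DMSO and 1.21 to 2.37 CPM with dTAGV1, with DCSTAMP and OCSTAMP at 0. Of 6 fibroblast markers only COL1A1 was tested and it was not called, at a log2 fold change of -0.32, while COL3A1, DCN and LUM were at 0. The fibroblast sum ran from 15.9 to 20.8 CPM with DMSO and 11.2 to 15.9 CPM with dTAGV1. In such bulk libraries, a change in the number of cells of a kind and in the RNA of each cell cannot be told apart.

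Promoter sequence from RefSeq was held for 7 of the 10 genes, namely CTSA, CTSC, CTSD, CTSF, CTSH, CTSL and CTSZ. The 6-base core CACGTG, which reads the same on both strands, was sought from 250 bases before the gene start to 50 bases after it. It was found in 3 of the 7, against 7.43% of all 27305 promoters in the table, and in 2 of the 6 members tested, against 10.2% of 9230 promoters of tested genes. CTSA held 2 copies at positions -42 and -25, counted with 0 at RefSeq's gene start, CTSD held 1 at -47, and CTSF held 2 at -123 and -51. For CTSA, CTSD, CTSH and CTSL this start differs from that of GENCODE 29, and the windows lie inside the GENCODE 29 loci given below. The windows of CTSC, CTSF and CTSZ lie partly inside their loci. Presence or absence of the core thus refers to RefSeq's start only. The copy at -25 in CTSA lies within the longer motif TCACGTGA, which was in 2.03% of the promoters of tested genes. The promoters of CTSA and CTSD are shown because their mRNAs changed and because they hold the core, which is in capitals. CTSC and CTSL rose as well and held no copy, and CTSH and CTSZ, which did not rise, held none either. A match describes the letters and not the binding of any factor.
CTSA promoter (RefSeq, GRCh38.p14, chr20:45891085-45891384, plus strand): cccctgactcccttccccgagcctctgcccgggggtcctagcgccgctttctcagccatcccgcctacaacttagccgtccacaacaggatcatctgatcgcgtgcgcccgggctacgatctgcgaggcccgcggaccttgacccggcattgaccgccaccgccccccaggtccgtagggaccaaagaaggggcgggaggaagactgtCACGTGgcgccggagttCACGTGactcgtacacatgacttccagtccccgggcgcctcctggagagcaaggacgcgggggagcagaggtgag
CTSD promoter (RefSeq, GRCh38.p14, chr11:1763878-1764177, minus strand): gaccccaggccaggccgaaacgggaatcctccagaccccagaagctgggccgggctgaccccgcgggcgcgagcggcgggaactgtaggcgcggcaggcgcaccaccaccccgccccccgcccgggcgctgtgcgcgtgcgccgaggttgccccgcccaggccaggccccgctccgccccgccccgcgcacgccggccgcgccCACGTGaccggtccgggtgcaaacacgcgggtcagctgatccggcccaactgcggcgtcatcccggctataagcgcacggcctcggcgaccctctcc

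The RNA was counted at its 3′ ends, and cleavage factor Im acts there, so 1 annotated end of each member was read as well. The protein-coding transcripts in the basic set of GENCODE 29 have 7 ends for CTSB, 6 for CTSD and 3 each for CTSC and CTSL. CTSA, CTSH and CTSS have 2 each, and CTSF, CTSK and CTSZ have 1 each. In the GENCODE 29 transcript taken for each gene, the hexamer AATAAA lay in the last 40 bases for CTSB, CTSC, CTSF, CTSK, CTSL, CTSS and CTSZ, and ATTAAA for CTSA. CTSD and CTSH had neither in this window, and their other annotated ends were not read. Of the 9 members tested, CTSF left out, 6 had AATAAA and 1 had ATTAAA without it; among 10641 tested protein-coding genes, 61.5% and 14.7% did. The sequence TGTA, the DNA form of the UGUA motif read on the transcript strand only, occurred once in the last 100 bases of CTSA, CTSC, CTSF, CTSL and CTSS and not in those of CTSB, CTSD, CTSH, CTSK and CTSZ. That is 4 of the 9 members tested, where 55.1% of tested genes had it. The sites below are shown to set 4 genes that rose beside CTSZ, which was not called. The signal is in capitals, and which site the cells used was not measured.
CTSA poly(A) signal: attgattatggaATTAAAttgggtacagct
CTSC poly(A) signal: tcatatttttaaAATAAAgttttaaaaata
CTSK poly(A) signal: tgtctacagtttAATAAAtagcatctagta
CTSL poly(A) signal: tttacctgtttaAATAAAatttaatttcaa
CTSZ poly(A) signal: gcccaagtgatgAATAAAgtatctggctct

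Among the 10 cathepsin genes, 6 rose with dTAGV1, 1 fell, 2 were not called and 1 was listed at 0 in every library. CTSK, CTSA, CTSL, CTSD, CTSC and CTSB rose by 2.22-fold to 1.28-fold, and each was higher in all 4 dTAGV1 libraries than in any DMSO library. CTSH fell, whereas CTSS and CTSZ did not pass the test. Calls are at a p under 0.05, adjusted by the Benjamini-Hochberg method, in edgeR's quasi-likelihood test over 12618 genes. By this rule 57.9% of all tested genes were called, 29.4% higher and 28.5% lower. Groups did not overlap, with dTAGV1 higher, for 25.8% of tested genes. The median log2 fold change was 0.52 over the 9 members tested and 0.01 over all tested genes, whose middle 50% ran from -0.43 to 0.42. The labels do not say that replicates came from separate cultures, so p-values measure the spread between these libraries. The counts are of reads near 3′ ends within annotated genes. A change in which ends were used and a change in mRNA amount cannot be told apart from them, and this was not tested.

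**Figure D1:**
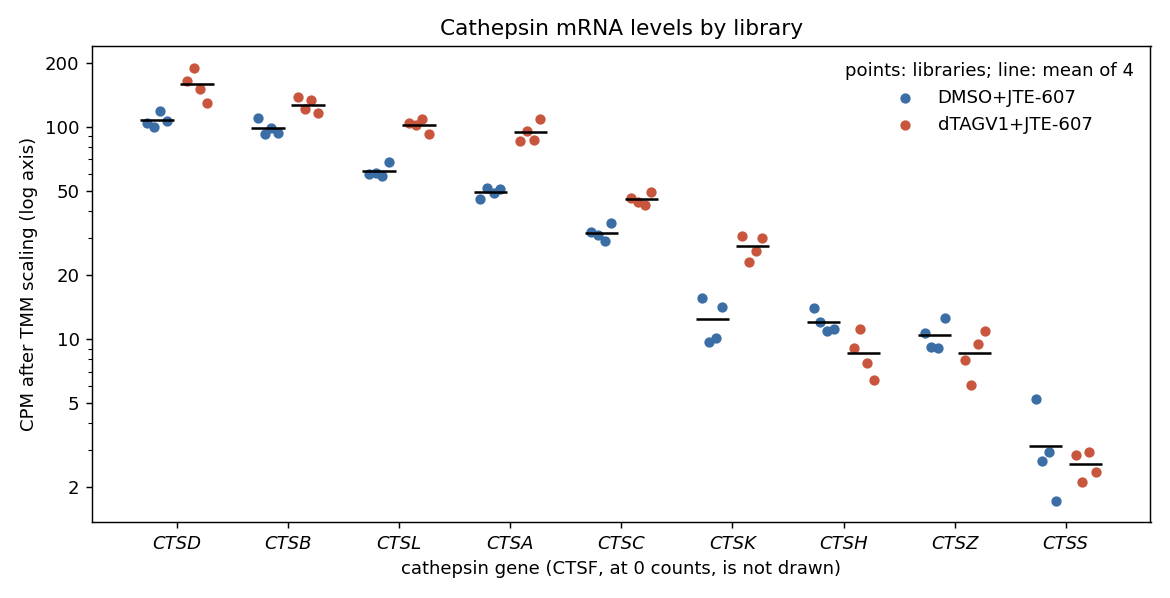
Level of each cathepsin mRNA in CPM on a log axis, with 1 point per library and a line at the mean of 4 libraries per group. The 6 genes CTSD, CTSB, CTSL, CTSA, CTSC and CTSK have dTAGV1 points above all DMSO points, and the points of CTSH, CTSZ and CTSS overlap.

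CTSA, also called protective protein, holds beta-galactosidase and neuraminidase in a complex in the lysosome besides trimming peptides from their carboxyl end (ENSG00000064601; GRCh38 chromosome 20, 45890144 to 45898820, plus strand, protein-coding). Its level was 45.4, 51.1, 48.8 and 50.7 CPM in DMSO replicates 1 to 4, and 85.9, 94.9, 86.9 and 109 CPM in dTAGV1 replicates 1 to 4. The lowest dTAGV1 library was well above the highest DMSO library, and dTAGV1 replicate 4 stood highest. The means were 49.0 ± 2.62 and 94.1 ± 10.6 CPM (SD, n = 4 each), a difference of 0.94 ± 0.10 on the log2 scale (SE; edgeR adjusted p = 8.72e-09). CTSA overlaps PLTP, NEURL2 and an antisense gene on the other strand, so the strand counted matters here. With reads counted irrespective of strand, only 12 to 20 reads remained with DMSO and 24 to 51 with dTAGV1, and 56.1% of all tested genes were called on such counts. The fold change then came to 1.19 ± 0.25 on the log2 scale (SE; edgeR adjusted p = 0.000237). CTSA's opposite-strand counts were 8 to 9 with DMSO and 1 to 6 with dTAGV1, too few to be tested.

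CTSD is the main aspartic protease of lysosomes (ENSG00000117984; chromosome 11, 1752752 to 1764573, minus strand, protein-coding). Its level was 104, 99.8, 119 and 107 CPM in the DMSO libraries and 164, 190, 151 and 129 CPM in the dTAGV1 libraries. The groups did not overlap, but the dTAGV1 libraries spread widely around their mean of 158 ± 25.3 CPM, against 107 ± 8.14 CPM with DMSO (SD, n = 4 each). CTSD rose by 0.56 ± 0.10 on the log2 scale (SE; edgeR adjusted p = 2.87e-05). A second protein-coding annotation, ENSG00000250644, covers 11203 bases of CTSD on the same strand. It had at most 3 counts in any library. Reads in exons that both annotations share go to the ambiguous total, so the level of CTSD may be understated in all libraries.

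CTSL is an endopeptidase that cleaves within protein chains (ENSG00000135047; chromosome 9, 87725519 to 87731393, plus strand, protein-coding). It measured 60.1, 60.5, 58.4 and 68 CPM with DMSO and 103, 102, 108 and 92.5 CPM with dTAGV1. Both groups were tight and far apart, with means of 61.8 ± 4.25 and 101.5 ± 6.57 CPM (SD, n = 4 each). The fold change came to 0.71 ± 0.09 on the log2 scale (SE; edgeR adjusted p = 1.97e-07). CTSL has pseudogenes and a close relative in CTSV, and reads that fit several loci were not counted, so its level is uncertain.

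CTSK, the collagen-degrading cathepsin of osteoclasts, had the largest fold change of the members on the counts used here (ENSG00000143387; chromosome 1, 150796208 to 150808323, minus strand, protein-coding). DMSO libraries had 15.6, 9.65, 10.1 and 14.1 CPM and dTAGV1 libraries 30.6, 23, 25.9 and 29.8 CPM. All dTAGV1 libraries exceeded all DMSO libraries, with means of 27.3 ± 3.56 and 12.4 ± 2.92 CPM (SD, n = 4 each). The fold change came to 1.15 ± 0.17 on the log2 scale (SE; edgeR adjusted p = 2e-06). With counts irrespective of strand it had 1.12, below the 1.19 of CTSA. Of the 4 osteoclast markers, DCSTAMP and OCSTAMP had no counts in any library and ACP5 had none with dTAGV1. CALCR, the calcitonin receptor, was below the filter but higher with dTAGV1 without overlap, as CTSK was, at 1.21 to 2.37 CPM against 0 to 1.07 CPM with DMSO. The part of these markers in the result was not tested.

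CTSB cleaves within chains and also removes dipeptides from their carboxyl end (ENSG00000164733; chromosome 8, 11842524 to 11869448, minus strand, protein-coding). Levels were 110, 92.6, 99 and 93.7 CPM with DMSO and 137, 121, 133 and 116 CPM with dTAGV1. CTSB had the smallest of the 6 rises, from 98.8 ± 7.88 to 126.8 ± 10.2 CPM (SD, n = 4 each), and its groups came close without overlap. Its fold change came to 0.36 ± 0.08 on the log2 scale (SE; edgeR adjusted p = 0.00074). The 95% interval, 0.19 to 0.53, lay below those of CTSA, 0.74 to 1.14, and CTSK, 0.81 to 1.49.

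CTSC, or dipeptidyl peptidase I, removes dipeptides from the amino end of proteins and activates the serine proteases of immune granules (ENSG00000109861; chromosome 11, 88293592 to 88337787, minus strand, protein-coding). It measured 32, 30.9, 28.8 and 35.1 CPM with DMSO and 45.9, 44.1, 42.7 and 49.4 CPM with dTAGV1, again without overlap. CTSC rose from 31.7 ± 2.63 to 45.5 ± 2.9 CPM (SD, n = 4 each). The fold change came to 0.52 ± 0.11 on the log2 scale (SE; edgeR adjusted p = 0.000235).

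CTSH, an aminopeptidase, moved the other way (ENSG00000103811; chromosome 15, 78921058 to 78949574, minus strand, protein-coding). Its level was 13.9, 12.1, 10.9 and 11.1 CPM with DMSO and 9.07, 11.2, 7.66 and 6.39 CPM with dTAGV1. Only dTAGV1 replicate 2 reached into the range of the DMSO libraries. CTSH fell from 12.02 ± 1.37 to 8.57 ± 2.05 CPM (SD, n = 4 each), a difference of -0.50 ± 0.20 on the log2 scale (SE; edgeR adjusted p = 0.0381). This call rests on 309 counts in all and was lost in 7 of 16 alternatives, over which the adjusted p ran from 0.0117 to 0.238. Leaving out DMSO replicate 1, DMSO replicate 2, dTAGV1 replicate 3 or dTAGV1 replicate 4 ended it, at edgeR adjusted p-values of 0.0978, 0.0637, 0.0801 and 0.127. Opposite-strand counts at CTSH were 1 to 6 with DMSO and 7 to 11 with dTAGV1, the reverse direction, too few for the test. With counts irrespective of strand the log2 fold change was -0.26 (edgeR adjusted p = 0.238).

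CTSZ, a carboxypeptidase also known as cathepsin X, was not called (ENSG00000101160; chromosome 20, 58995185 to 59007247, minus strand, protein-coding). It measured 10.7, 9.16, 9.07 and 12.6 CPM with DMSO and 7.94, 6.04, 9.43 and 10.9 CPM with dTAGV1, and the groups overlapped. The log2 fold change was -0.26, with a 95% interval from -0.70 to 0.18 (edgeR adjusted p = 0.302). The locus gave more reads on the opposite strand, 253 to 266 counts with DMSO and 226 to 314 with dTAGV1, than the 20 to 51 on the strand of CTSZ. Opposite-strand counts there differed by a log2 fold change of -0.09, with a 95% interval from -0.31 to 0.12 (edgeR adjusted p = 0.498). With reads counted irrespective of strand, only 41 to 58 remained with DMSO and 34 to 54 with dTAGV1, so most of the opposite-strand reads were not given to CTSZ. GENCODE 29 has no gene that overlaps CTSZ, and whether these reads belong to another gene of the authors' annotation was not tested. Of 3324 genes with enough opposite-strand counts 48.4% were called, and CTSZ was the only member among the 3324.

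CTSS, which trims the invariant chain of MHC class II molecules, stood near the lower limit of the data (ENSG00000163131; chromosome 1, 150730196 to 150765957, minus strand, protein-coding). Libraries had 5.19, 2.65, 2.93 and 1.73 CPM with DMSO and 2.83, 2.11, 2.95 and 2.37 CPM with dTAGV1, from 7 to 19 counts each. DMSO replicate 1 was highest, and the other 7 libraries overlapped. The log2 fold change was -0.27 with a 95% interval from -1.01 to 0.47 (edgeR adjusted p = 0.539), so a fall or a rise within that interval is compatible with these counts. CTSF, an endopeptidase of the papain family, was listed at 0 on either strand in all 8 libraries (ENSG00000174080; chromosome 11, 66563463 to 66568841, minus strand, protein-coding). ATP6V0C, a proton pump subunit that every cell uses, was also listed at 0, so the entry of CTSF is not read as a level.

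**Figure D2:**
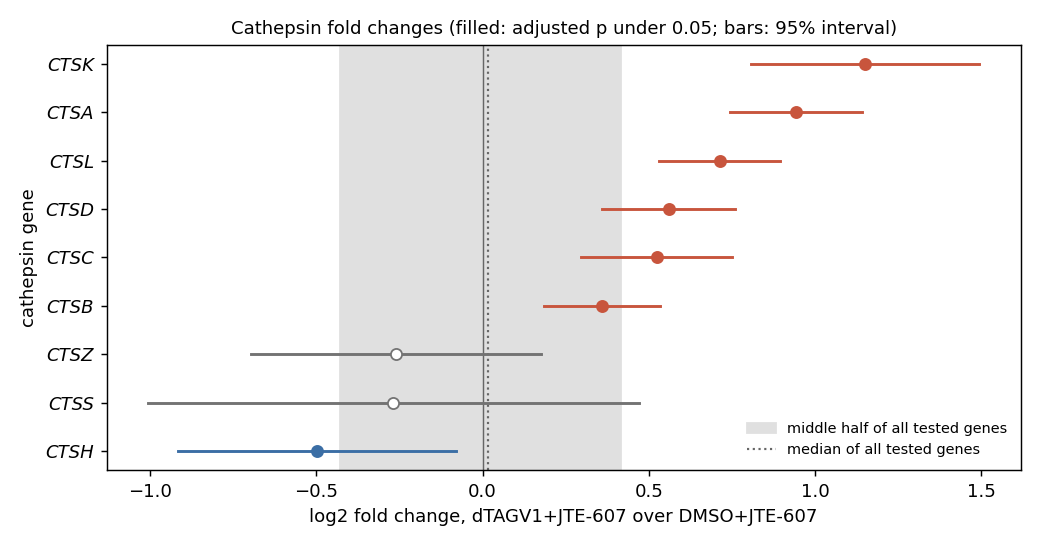
Log2 fold change of each tested cathepsin gene, dTAGV1 over DMSO, with its 95% interval; filled points passed the test. The shaded band spans the middle 50% of all tested genes, from -0.43 to 0.42, and the points of CTSK, CTSA, CTSL, CTSD and CTSC lie to its right.

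Summed over the 10 genes, the level came to 386 ± 12.6 CPM in the DMSO group and 573 ± 21.6 CPM in the dTAGV1 group (SD, n = 4 each), a ratio of 1.48. The kit reads each transcript near its 3′ end, so counts were not divided by gene length. Within that sum the make-up shifted. CTSA made up 12.7% ± 1.0 of the summed counts with DMSO and 16.5% ± 2.39 with dTAGV1, and CTSB 25.6% ± 1.62 and 22.1% ± 1.58 (SD, n = 4 each). In neither gene did the shares of the groups overlap. CTSD kept a like share, 27.8% ± 2.0 and 27.5% ± 3.43, with overlapping libraries (SD, n = 4 each). CTSH went from 3.11% ± 0.342 to 1.49% ± 0.305 (SD, n = 4 each). These shares are parts of 1 whole, so a rise in some lowers the others, and they were not tested.

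**Figure D3:**
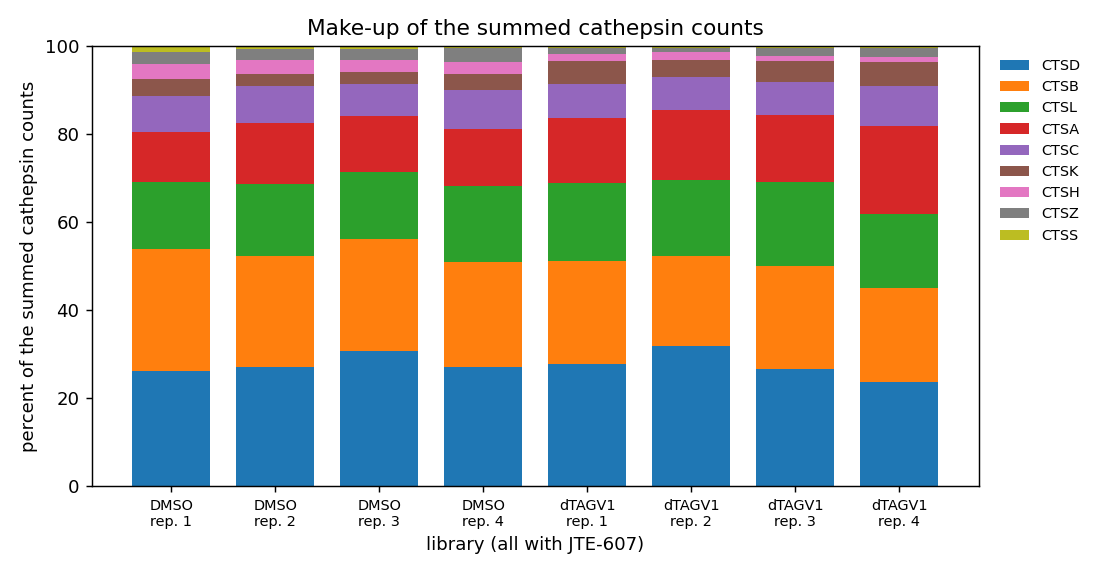
Share of each cathepsin gene in the summed cathepsin counts, in percent, with 1 bar per library. CTSD, CTSB, CTSL and CTSA fill most of every bar, and the CTSA band is wider in the dTAGV1 bars, at 16.5% on average against 12.7% with DMSO.

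Other lysosomal genes were read from 9 lists written by hand with 114 genes, of which 86 were tested. In all, 51 were called, or 59.3% of those tested, near the 57.9% of all tested genes. By direction 43 of the 86 rose, where 29.4% of all tested genes did, and 8 fell. The median log2 fold change was 0.29. Of 5 further cathepsins only CTSV, a close relative of CTSL, was tested. It fell from 23.97 ± 3.86 to 16.9 ± 1.73 CPM (SD, n = 4 each), which is a log2 fold change of -0.50 (edgeR adjusted p = 0.00645), the opposite direction to CTSL. Among 4 tested inhibitors of 13 listed, 3 rose and 0 fell, with a median of 0.38. CSTA, a cystatin of the cytosol, rose from 5.89 ± 2.19 to 18.01 ± 5.28 CPM (SD, n = 4 each), which is a log2 fold change of 1.62. The secreted cystatins CST3 and CST6 rose by 0.37 and 0.39, and CSTB, the cytosolic cystatin that is widely expressed, was not called at -0.07 on the log2 scale.

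Of 5 other lysosomal peptidases 3 rose and 0 fell, with a median log2 fold change of 0.38. Of all tested genes, 29.4% rose and 28.5% fell. The carboxypeptidases PRCP and CPVL rose by 0.74 and 1.14, while LGMN, which matures several cathepsins by cleaving after asparagine, was not called at 0.05. The 3 tested partners of CTSA and lysosomal protective proteins all rose. GLB1, the beta-galactosidase held by CTSA, rose by 0.29, PSAP, the precursor of sphingolipid activators, by 0.68, and GRN, or progranulin, by 0.52. The call of GLB1 was lost without DMSO replicate 4 and with library-size scaling, at edgeR adjusted p-values of 0.0554 and 0.0573. NEU1, the neuraminidase of the same complex, had 0 or 1 count in each library and did not pass the filter, so its entry is not read as a level.

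Sorting genes for mannose 6-phosphate numbered 10, of which 5 rose and 0 fell, with a median log2 fold change of 0.47. The share called was 50%, below the 57.9% of all tested genes, of which 29.4% rose. IGF2R, the large receptor for this tag, rose from 108 ± 10.3 to 170 ± 7.23 CPM, and SORT1, an alternative sorting receptor, from 24.01 ± 5.86 to 39.8 ± 5.81 CPM (SD, n = 4 each). With counts irrespective of strand IGF2R was not called and its log2 fold change turned to -0.13 (edgeR adjusted p = 0.606). Of 21 tested glycosidases, sulfatases, lipases and related proteins 9 rose and 1 fell, or 47.6% called, with a median of 0.29. ASAH1, the acid ceramidase, rose by 1.41 and LIPA, the acid lipase, by 1.25, whereas GLA, alpha-galactosidase, fell by 0.46 on the log2 scale. GLA was not called without DMSO replicate 2 or without dTAGV1 replicate 1 (edgeR adjusted p = 0.151 and 0.079).

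Among 12 tested membrane proteins 8 rose and 2 fell, with a median log2 fold change of 0.52. The share called was 83.3%, against 57.9% of all tested genes, of which 29.4% rose. SCARB2 and LAPTM4A rose by 1.10 and 0.98, LAMP1 rose by 0.36, and SLC17A5, the sialic acid exporter, fell by 0.57 on the log2 scale. Of 14 tested proton pump genes 5 rose and 1 fell, or 42.9% called, with a median of 0.16. The accessory subunits ATP6AP2 and ATP6AP1 rose by 1.00 and 0.87, and ATP6V1A, the catalytic subunit, fell by 0.49. Of 16 tested regulators, 7 rose and 3 fell, or 62.5% called, with a median of 0.25. RRAGD and LAMTOR3, which anchor nutrient signalling at the lysosome, rose by 0.84 and 0.92, and LAMTOR1 and LAMTOR2, of the same anchoring complex as LAMTOR3, fell by 0.31 and 0.39. The call of LAMTOR2 was lost in 8 alternatives, among them DESeq2 (adjusted p = 0.0831) and the 6 fits that left out DMSO replicate 2, 3 or 4 or dTAGV1 replicate 1, 2 or 4, at edgeR adjusted p-values of 0.0528 to 0.141. TFEB and TFE3 did not pass the filter, and the entry of TFE3, at 0 or 1 count in each library, is not read as a level. The calls of these lists come from the same edgeR fit and adjustment as those of the cathepsins.

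**Figure D4:**
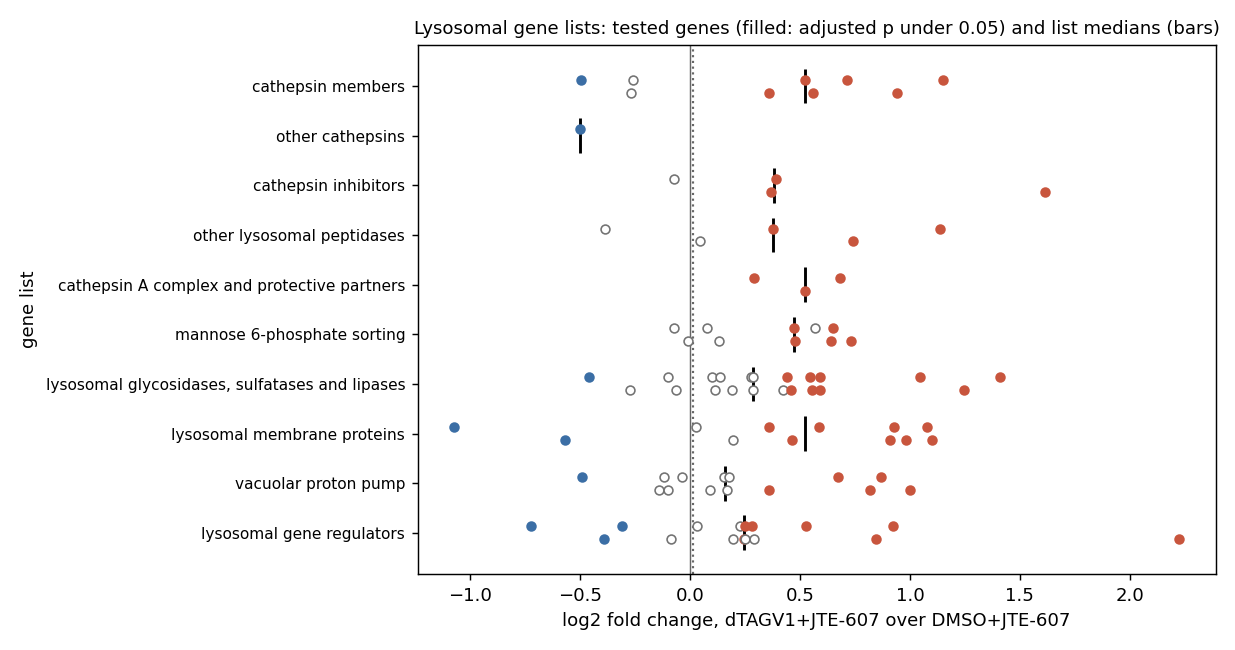
Log2 fold change of each tested gene of the cathepsin and lysosomal lists, dTAGV1 over DMSO, with filled points for genes that passed the test and a bar at each list's median. The cathepsin median is 0.52, the median of all tested genes, drawn as a dotted line, is 0.01, and the proton pump list has a median of 0.16.

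Genes whose levels followed the called members most closely over the 8 libraries were sought among 9241 genes with a symbol and at least 10 CPM. By Pearson's r of log2(CPM + 1), the closest was SLC37A3 for CTSA at 0.994, CDCP1 for CTSB at 0.986, NBEA for CTSC at 0.996 and HDAC1 for CTSD at 0.987. For CTSH it was OXLD1 at 0.984, for CTSK the lysosomal GTPase gene RRAGD at 0.988 and for CTSL DNAJC25 at 0.995. These values describe libraries that share the split into 2 groups, and the best of 9241 candidates is high by selection.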

How the data were processed

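RNA of 8 HCT116 libraries was made with the Lexogen 3′ QuantSeq forward kit, per the labels' protocols. The authors deposited read counts per gene as whole numbers, in STAR's layout. The submitters' processing notes name FastQC, fastp, STAR, HTSeq, DESeq2 and GRCh38; versions, annotation and the use of molecular identifiers are not given in the sources used here. The column for the gene's own strand was used, which exceeded the opposite strand by 8.28 to 8.48 times. The 4 totals of reads given to no gene, 56.7% to 62.8% of reads, stayed out of library sizes and tests.

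Groups follow the titles. Genes were filtered with filterByExpr, scaled with TMM and tested with edgeR 4.0.16 in R 4.3.3 (robust quasi-likelihood), with Benjamini-Hochberg adjustment over all tested genes. CPM is per 1000000 counts after TMM scaling. The standard error is the absolute log2 fold change over the square root of F. Loci come from GENCODE 29 on GRCh38, not stated to be the authors' annotation, and promoters from RefSeq on GRCh38.p14.

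The members and lists were chosen with earlier results of these data known. Beside the members, each list gives up to 2 genes that rose most and 2 that fell most, called and at a mean of at least 10 CPM; CSTB, CST3, LGMN, TFEB, TFE3, LAMP1, GLB1 and NEU1 were fixed by name. Other genes were named after their values were seen.

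Replicate pairs differed by 1.83 to 5.29 in chi-square per degree of freedom, more than sampling noise. Counts were also simulated for 12618 genes, with 200 changed and all drawn at 1 common dispersion, a coefficient of variation of 0.089. There 65.4% of genes changed by 0.5 and 90.6% changed by 1 (log2) were recovered, with 3 false calls. The data had 7302 genes called and were fitted with a dispersion per gene, so these rates need not hold for them. Alternatives were RLE and library-size scaling, DESeq2 1.42.0, limma-voom 3.58.1, non-robust dispersions, other filters, counts irrespective of strand, a replicate block and leaving out each library.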

Additional observations from a re-analysis of the deposited data

Results flagged for a closer look

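In 3 of 80 groups of 4 libraries, over the genes named, 1 library stood far from the other 3, where chance gives about 1 in 20. GLA was at 24.6 CPM in DMSO replicate 2, with 16.7 to 17.6 CPM in the other DMSO libraries. ATP6V1A was at 194.3 CPM in DMSO replicate 1, with 230.3 to 235.7 CPM in the others. LAMTOR1 was at 142.0 CPM in dTAGV1 replicate 2, with 102.4 to 108.4 CPM in the others. No cathepsin gene had such a library.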

How the results depend on the processing

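The rises of CTSA, CTSB, CTSC, CTSD, CTSK and CTSL kept their calls in every alternative in which they were tested, with log2 fold changes of 0.85 to 1.19, 0.28 to 0.41, 0.45 to 0.57, 0.45 to 0.63, 1.04 to 1.27 and 0.64 to 0.76. CTSK was not tested where a mean of at least 100 counts was required. The number of cathepsin genes called was 5 to 7 over 17 alternatives, with 5 of 5 tested at that filter. The call of CTSH was lost with DESeq2, without a filter, with counts irrespective of strand, and in the fits that left out DMSO replicate 1, DMSO replicate 2, dTAGV1 replicate 3 or dTAGV1 replicate 4. CTSS and CTSZ were called in none. The sign of CTSS turned without DMSO replicate 1, at 0.07. For 35 genes of the lists, under the same alternatives chosen after seeing the data, 570 of 585 values kept their side of the threshold, 12 lost it, COL1A1 gained it with library-size scaling, and IGF2R and CTNS changed sign with counts irrespective of strand, to -0.13 and 0.93; the cause was not tested.

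A mean of at least 100 counts left 4120 genes called of 6369 tested, against 7302 of 12618, since fewer genes were tested. Leaving out each library gave 6861 to 7232 genes, 6 to 7 cathepsin genes, 48 to 52 other lysosomal genes and 1566 to 1656 genes on the opposite strand. Scaling by library size alone moved the difference in summed cathepsin level from 187.0 to 161.7 CPM and lowered the share of called genes that rose from 50.8% to 43.8%. Leaving out each library kept that difference between 176 and 191 CPM.

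Libraries with the same replicate number deviated together at correlations of 0.135, -0.0221, 0.0253 and 0.0362, and 3 of 8 libraries were closest to their own number, so the numbers were not taken as pairs. With the replicate number as a block, 7434 genes, 7 cathepsin genes, 51 other lysosomal genes and 1658 genes on the opposite strand were called. Counting depth limits CTSS, CTSH and CTSZ most, at 85, 309 and 288 counts over all libraries.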

Other observations

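Several lysosomal genes below 10 CPM, or outside the tests, were singled out after their values were seen. MITF, a transcription factor related to TFEB, rose from 6, 2, 5 and 8 counts in DMSO replicates 1 to 4 to 26, 11, 30 and 26 in dTAGV1 replicates 1 to 4. Its fold change came to 2.23 ± 0.38 on the log2 scale (SE; edgeR adjusted p = 1.79e-05), on levels of 1.36 ± 0.641 and 6.42 ± 2.34 CPM (SD, n = 4 each). SERPINB4, a serpin that inhibits serine and cysteine proteases, had 0 counts in all 4 DMSO libraries and 16, 22, 9 and 12 in the dTAGV1 libraries, and was not tested because of the filter. LAMP3, an inducible relative of LAMP1, rose by a log2 fold change of 1.08, and CTNS, the lysosomal cystine exporter, fell by 1.07. With counts irrespective of strand CTNS rose instead, by 0.93 (edgeR adjusted p = 0.000478).

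Some housekeeping lysosomal genes were listed at or near 0 in these tables, as CTSF was. ATP6V0C and GALC had no counts, NEU1 had 0 or 1 count in each library, and GAA had a mean of 0.369 CPM over the 8 libraries. The regulator TFE3 also had 0 or 1 count in each library. In this layout, reads that fit more than 1 annotated gene are counted to none, and whether that applies to these genes was not tested.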
